A study of Mus musculus with 9 samples.

Results

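Solute carrier family 22 (Slc22a) genes encode transporters of organic cations, anions and zwitterions, and 8 of them were followed here in mouse liver: Slc22a3, Slc22a5, Slc22a7, Slc22a18, Slc22a23, Slc22a27, Slc22a28 and Slc22a30. The members were the rows of the gene expression table that carried these names, namely 9 of 52151 rows for 8 genes, because Slc22a27 had a second row for an assembled intronic transcript. Expression was given as fragments per kilobase of transcript scaled to library size (FPKM) in 9 liver libraries, 3 in each of 3 groups. Pair-fed mice (PF) received the isocaloric control liquid diet and alcohol-fed mice (AF) the Lieber-DeCarli diet. The third group (AF with MNA) received the Lieber-DeCarli diet together with MNA injected into the abdominal cavity at 50 mg/kg. All mice were 8 weeks old and were fed for 5 weeks. The methods describe PF and AF mice as males, and they do not cover the MNA group. The labels give the strain as C57BL/6 for PF and AF, and as C57BL/7, C57BL/8 and C57BL/9 for the 3 libraries with MNA, where the last digit rises by 1 from library to library. Whether the strains differed or these labels hold an entry error is not known. No injection is given for PF or AF, so MNA and the injection itself cannot be told apart. Nothing in the labels says that each library came from its own animal, and p-values therefore measured only the spread between these libraries.

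Slc22 proteins sit in the plasma membrane and move small charged molecules, among them drugs, toxins, carnitine and hormone conjugates, between blood and cell. In liver, well-known members are the cation transporter Slc22a3, the carnitine transporter Slc22a5 and the anion transporter Slc22a7 of the hepatocyte surface facing the blood. Slc22a18 lies in the imprinted Kcnq1 domain, and the substrate of Slc22a23 is not established. Slc22a27, Slc22a28 and Slc22a30 belong to a rodent cluster of anion transporter genes that arose by repeated duplication.

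The duplicated genes were examined first, because their sequences decide how far their values can be separated. All 3 lie on the minus strand of chromosome 19 (build GRCm38), Slc22a27 at chr19:7864388-7966027, Slc22a28 at chr19:8062209-8131982 and Slc22a30 at chr19:8335371-8405111. Over coding bases 1 to 240, Slc22a28 and Slc22a30 had the same sequence and Slc22a27 differed from both at 16 positions, which are in capitals. The stretch lies in exon 1 of Slc22a28 (chr19:8131537-8131776), exon 1 of Slc22a30 (chr19:8404666-8404905) and exon 2 of Slc22a27 (chr19:7926531-7926770). The sequences are from GENCODE M21 transcripts, 5′ to 3′:
Slc22a28: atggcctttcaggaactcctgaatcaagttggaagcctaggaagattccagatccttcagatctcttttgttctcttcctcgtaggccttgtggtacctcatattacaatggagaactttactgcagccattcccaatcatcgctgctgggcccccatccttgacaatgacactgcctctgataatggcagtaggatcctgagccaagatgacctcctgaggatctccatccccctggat
Slc22a30: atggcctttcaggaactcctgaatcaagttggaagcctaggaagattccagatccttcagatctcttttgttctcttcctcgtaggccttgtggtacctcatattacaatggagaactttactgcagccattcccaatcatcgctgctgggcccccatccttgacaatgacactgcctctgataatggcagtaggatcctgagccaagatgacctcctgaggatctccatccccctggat
Slc22a27: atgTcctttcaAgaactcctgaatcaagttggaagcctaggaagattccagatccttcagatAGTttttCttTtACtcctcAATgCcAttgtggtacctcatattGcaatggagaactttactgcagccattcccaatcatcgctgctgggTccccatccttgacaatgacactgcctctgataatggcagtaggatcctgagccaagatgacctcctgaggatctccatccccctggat

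Over the whole coding sequence of 1659 bases, Slc22a28 and Slc22a30 differed at 20 positions (98.8% identity), and the longest run without a difference had 431 bases. Slc22a27 shared 91.5% of its coding bases with Slc22a28 and 91.6% with Slc22a30. Of the other member pairs, none passed 52.9% (Slc22a5 and Slc22a7). The 120-base window within 1 exon that held the most differences between Slc22a28 and Slc22a30 had only 4, in capitals below, at coding bases 662 to 781 in exon 4 (chr19:8116786-8116905 and chr19:8386441-8386560, minus strand):
Slc22a28: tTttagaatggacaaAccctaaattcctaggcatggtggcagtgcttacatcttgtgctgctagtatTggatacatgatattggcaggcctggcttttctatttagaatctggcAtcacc
Slc22a30: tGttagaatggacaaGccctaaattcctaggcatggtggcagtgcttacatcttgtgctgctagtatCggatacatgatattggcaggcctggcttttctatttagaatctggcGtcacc

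Of all 100-base windows of the longest coding Slc22a28 transcript, 36.9% also occurred in that of Slc22a30, and 32.6% the other way round. A read that lies wholly in such a window cannot be placed on 1 of the 2 genes, so each value of this pair is uncertain and their sum is given beside them below. The duplication reached the promoters as well. The 250 bases before the RefSeq start (build GRCm38.p6, minus strand) could be aligned over 244 bases without a gap and differed at 6 positions, in capitals, at chr19:8131983-8132232 for Slc22a28 and chr19:8405106-8405355 for Slc22a30:
Slc22a28: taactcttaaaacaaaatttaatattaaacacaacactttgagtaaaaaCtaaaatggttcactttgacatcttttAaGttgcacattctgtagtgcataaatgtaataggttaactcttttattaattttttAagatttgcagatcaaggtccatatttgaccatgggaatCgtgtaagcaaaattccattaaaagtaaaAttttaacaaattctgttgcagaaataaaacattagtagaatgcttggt
Slc22a30: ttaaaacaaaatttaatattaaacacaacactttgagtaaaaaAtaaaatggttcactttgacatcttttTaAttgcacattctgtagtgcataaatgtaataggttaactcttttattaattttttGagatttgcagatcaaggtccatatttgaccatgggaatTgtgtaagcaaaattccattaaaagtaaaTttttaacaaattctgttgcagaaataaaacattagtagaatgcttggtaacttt

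A RefSeq promoter of 300 bases was at hand for 7 of the 8 members, and they differed widely in base composition. Against a median GC content of 52.7% over 32851 promoters, the promoters of Slc22a28 and Slc22a30 had 28.3% and 27.7%, and those of Slc22a27, Slc22a3 and Slc22a18 had 47.0%, 52.0% and 54.7%. Those of Slc22a5 and Slc22a23 had 72.7% and 77.3%, and held 34 and 38 CpG dinucleotides against a median of 7. The GC box GGGCGG, searched on both strands with overlaps counted, occurred 5 times in the Slc22a5 promoter and 4 times in that of Slc22a23, in none of the other 5, and in 35.7% of all promoters of the same length.

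Some features of the libraries bear on the values that follow. The summed FPKM of assembled transcripts inside introns was 9433 in AF replicate 3 and 8934 in AF with MNA replicate 1, against 2477 to 4937 in the other 7 libraries. Its part in the results was not tested, beyond a run of AF with MNA against AF without both high libraries, given below. Hepatocyte markers, led by Alb (10882 to 17386 FPKM), were high in every library, and of the kidney proximal tubule markers Slc34a1 and Lrp2, the highest value was 0.27 FPKM. Among lncRNA transcripts, the median read coverage was 5.84 to 8.30 reads per base for 1 FPKM. Coverage of the members was not given, but Slc22a27, at less than 1 FPKM in every library, was the lowest of them.

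The members differed widely in level. In PF livers, Slc22a18 was highest with 29.2 ± 2.21 FPKM (mean ± SD, n = 3 libraries here and below), followed by Slc22a7 with 23.5 ± 7.73 and Slc22a23 with 17.4 ± 0.0416. Slc22a28 and Slc22a30 followed with 9.75 ± 3.64 and 8.76 ± 1.92 FPKM, then Slc22a5 with 2.84 ± 0.320, Slc22a3 with 1.70 ± 0.623 and Slc22a27 with 0.227 ± 0.167. FPKM is per length, so these levels can be set side by side. Of the neighbours in this order, Slc22a18 and Slc22a7, Slc22a7 and Slc22a23, and Slc22a28 and Slc22a30 overlapped between libraries, and the other 4 steps did not. In both alcohol-fed groups the libraries of Slc22a18 stood clear of the rest, whereas the libraries of each neighbouring pair from Slc22a23 down through Slc22a7, Slc22a5, Slc22a28 and Slc22a30 overlapped. The summed FPKM of the 8 members was 93.4 ± 12.5 for PF, 84.6 ± 4.68 for AF and 93.9 ± 9.45 with MNA, and the groups overlapped.

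**Figure D1:**
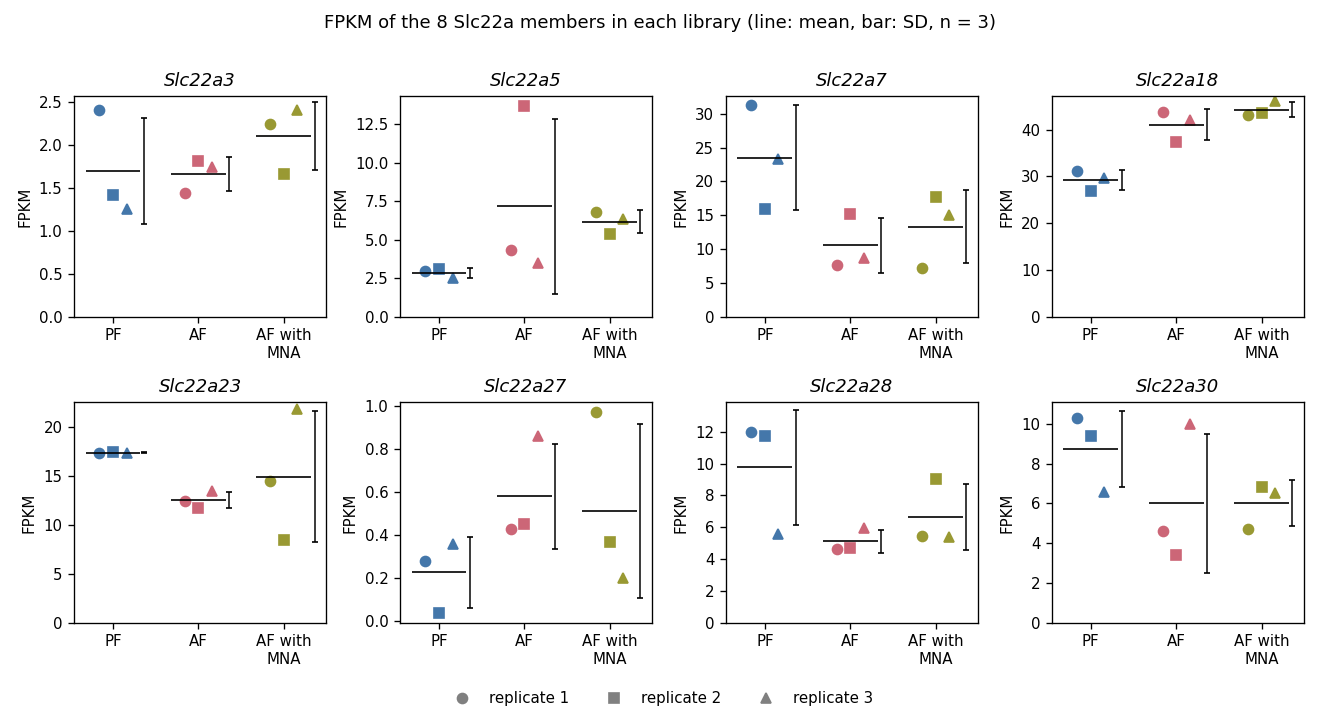
FPKM of each member (vertical axis, from 0, a separate scale per panel) in the 3 libraries of PF, AF and AF with MNA. Points are libraries with the replicate number as the symbol, lines are means and bars the SD (n = 3). Slc22a18 is higher and Slc22a23 lower in every AF library than in every PF library, and AF replicate 2 stands far above the other libraries for Slc22a5.

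The comparison of AF with PF asks what alcohol feeding changed. By limma on log2(FPKM + 1), 7 of the 8 members were tested, and 1 of them, Slc22a7, passed the threshold of the study's methods for lncRNAs (unadjusted p below 0.05 and a log2 ratio of the group means beyond 1 in size). The background for that threshold was 4.3% of 12268 genes. At an unadjusted p below 0.05 alone there were 4 members (background 11.7%), namely Slc22a23, Slc22a18, Slc22a7 and Slc22a28, and after Benjamini-Hochberg adjustment 0 members (background 0.326%), with adjusted p from 0.229 to 0.997. Of the 7, 4 had libraries that did not overlap between the groups (Slc22a5, Slc22a7, Slc22a18 and Slc22a23), where the background was 18.3%. Across all 8, means were higher in AF for 3 members and lower for 5, and the median log2 ratio of the 7 was -0.47, against -0.03 over all genes tested. Since the members are bulk values, fewer cells that express a gene and less RNA per cell cannot be told apart.

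Slc22a7, the anion transporter of the hepatocyte surface (chr17:46432183-46438457, minus strand), was at 31.3, 15.9 and 23.4 FPKM in PF livers and at 7.69, 15.2 and 8.65 in AF livers. All AF values lay below all PF values, but AF replicate 2 came close to PF replicate 2. Its log2 ratio was -1.16, with a limma coefficient of -1.10 ± 0.32 (SE) on the log2(FPKM + 1) scale. The unadjusted limma p was 0.0126 and the adjusted p 0.294, and the exact two-sided permutation test gave p = 0.1, the smallest that 3 against 3 libraries allow. Leaving out PF replicate 1 or AF replicate 1 brought the log2 ratio to -0.90 and -0.98, inside the threshold.

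Slc22a5, which takes up carnitine, the carrier of long-chain fatty acids into mitochondria (chr11:53864542-53891660, minus strand), had 2.93, 3.10 and 2.48 FPKM in PF and 4.31, 13.7 and 3.48 in AF. Every AF value was above every PF value, and AF replicate 2 was the only value above 10 FPKM. Its log2 ratio of 1.34 did not pass (unadjusted limma p = 0.0850, adjusted p = 0.493, exact permutation p = 0.1). It was 0.46 without AF replicate 2 and 1.67 without AF replicate 3, when it did pass.

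Slc22a18 (chr7:143473736-143499334, plus strand), a putative organic cation transporter expressed mainly from the maternal copy, had 31.2, 26.8 and 29.5 FPKM in PF and 43.8, 37.3 and 42.0 in AF. The groups were apart, and the mean was 40.5% higher in AF. The log2 ratio was 0.49, with a limma coefficient of 0.48 ± 0.13 (SE), an unadjusted p = 0.00914, an adjusted p of 0.258 and an exact permutation p = 0.1.

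Slc22a23 (chr13:34179158-34345182, minus strand) was the most even member within PF, at 17.4, 17.4 and 17.4 FPKM, against 12.5, 11.8 and 13.5 in AF. All AF values were lower, and the mean changed by -27.8%. The log2 ratio was -0.47 (coefficient -0.44 ± 0.11, SE) with the lowest p of the 7, 0.00642 by limma, an adjusted p of 0.229 and an exact permutation p = 0.1. For Slc22a18 and Slc22a23, leaving out any library kept the direction and an unadjusted p at or below 0.0376 and 0.0239, respectively. With all 9 libraries in the fit, which then share 1 estimate of the spread, limma gave Slc22a18 an adjusted p of 0.127 and an unadjusted p = 0.00271, but Slc22a23 an adjusted p of 0.525 and an unadjusted p = 0.139.

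Slc22a28 had 12.0, 11.7 and 5.55 FPKM in PF and 4.64, 4.69 and 5.96 in AF. PF replicate 3 lay among the AF libraries. The log2 ratio was -0.94 (unadjusted limma p = 0.0341, adjusted p = 0.388, exact permutation p = 0.2), and without PF replicate 3 it was -1.22 and passed the threshold. Without PF replicate 1 or 2, or AF replicate 1 or 2, it was -0.76 to -0.88 and its unadjusted limma p rose to between 0.088 and 0.106, and with the replicate number as a block that p was 0.0589. Its near copy Slc22a30 had 10.3, 9.40 and 6.60 FPKM in PF and 4.61, 3.42 and 9.99 in AF. Here AF replicate 3, the AF library with the most intron signal, lay among the PF libraries. The log2 ratio was -0.54 (unadjusted limma p = 0.152, adjusted p = 0.586, exact permutation p = 0.3) with all libraries and -1.13 without AF replicate 3, when both genes passed, but -0.26 without AF replicate 2. Summed, the pair had 22.3, 21.1 and 12.2 FPKM in PF and 9.25, 8.11 and 15.95 in AF. The groups overlapped, and an exact two-sided permutation test on the sum gave p = 0.2, where no less than 0.1 was possible. The ratio of Slc22a28 to Slc22a30 was 0.841 to 1.25 in PF and 0.597 to 1.37 in AF. The paper lists an Slc22a28 transcript as lower in AF by sequencing and reports the same direction by RT-PCR in mouse liver. Those results are for a transcript, whereas the values here are for the whole gene entry.

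Slc22a3, a cation and monoamine transporter (chr17:12418960-12507704, minus strand), showed no such separation, with 2.41, 1.42 and 1.26 FPKM in PF and 1.44, 1.81 and 1.74 in AF (log2 ratio -0.03, adjusted limma p = 0.997, exact permutation p = 1). Slc22a27 was not tested because its mean was below 0.5 FPKM. It had 0.28, 0.04 and 0.36 FPKM in PF and 0.43, 0.45 and 0.86 in AF, with no overlap and an exact permutation p = 0.1, and limma over all genes above 0 gave an adjusted p of 0.597.

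**Figure D2:**
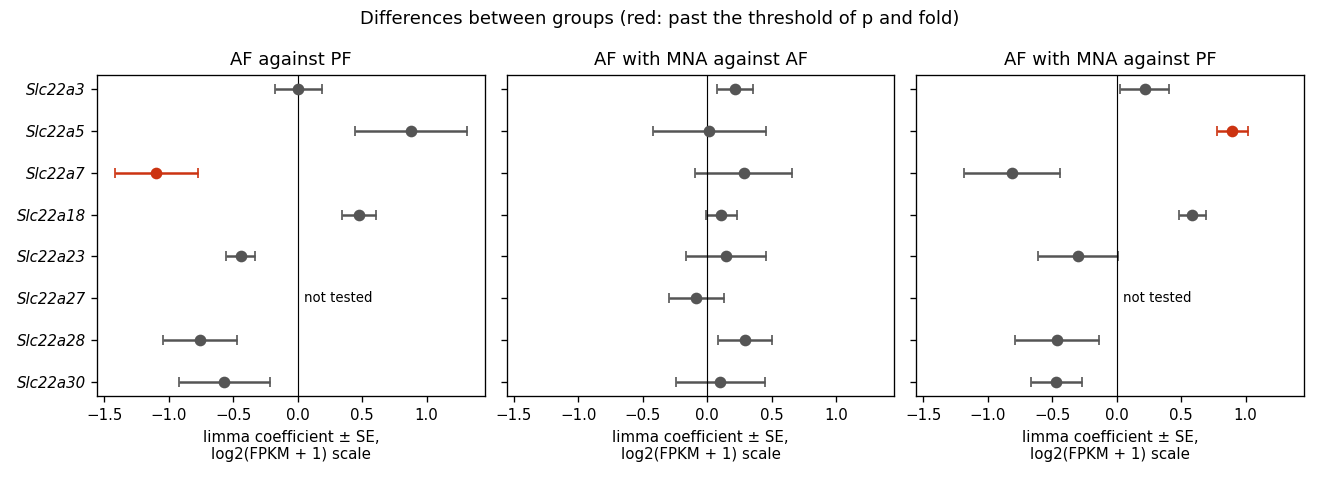
Limma coefficients with SE on the log2(FPKM + 1) scale (horizontal axis) for each member in the 3 comparisons, which share groups. Red marks the members past the threshold, Slc22a7 in AF against PF and Slc22a5 in AF with MNA against PF, and no member is red in AF with MNA against AF.

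The comparison of AF with MNA with AF asks what MNA changed under alcohol feeding. All 8 members were tested by limma, and 0 passed the threshold (background 1.98% of 12214 genes). At an unadjusted p below 0.05 there were also 0 (background 5.22%), the lowest being 0.174 for Slc22a3, and 0 after adjustment (background 0.0491%). In 0 of the 8 did the groups stand apart (background 10.1%). Log2 ratios ranged from -0.22 for Slc22a5 to 0.38 for Slc22a28, with a median of 0.18 against 0.01 over all genes. With 1 library left out in turn, the ratio of Slc22a28 ran from 0.09 (without AF with MNA replicate 2) to 0.50, and that of Slc22a7 from 0.08 (without AF with MNA replicate 2) to 0.70. Without AF replicate 3 and AF with MNA replicate 1, the count past the threshold was 0 again. Slc22a30 then moved from a log2 ratio of 0.0032 to 0.73 and was the 1 member with an unadjusted p below 0.05 by limma (adjusted p = 0.582).

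For each member, the values with MNA overlapped with those of AF. Slc22a7 had 7.22, 17.6 and 15.0 FPKM, with AF with MNA replicate 1 below all AF libraries, replicate 2 above them and replicate 3 above 2 of them (log2 ratio 0.34, adjusted limma p = 0.987, exact permutation p = 0.7). Slc22a18 had 43.2, 43.5 and 46.1 FPKM, of which 2 were below AF replicate 1. The SD in FPKM was largest for Slc22a23, at 14.5, 8.45 and 21.9 FPKM, with 1 library below all AF values and 2 above them, whereas relative to the mean Slc22a27 was more spread.

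Slc22a5 had 6.82, 5.34 and 6.31 FPKM with MNA, all between AF replicate 1 and AF replicate 2. Its ratio to AF therefore hung on 1 library, being -0.22 on the log2 scale with AF replicate 2 and 0.66 without it, where limma gave an unadjusted p below 0.05 and an adjusted p of 0.771. Slc22a28 had 5.44, 9.02 and 5.39 FPKM and Slc22a30 4.70, 6.81 and 6.55, with AF with MNA replicate 2 highest for both. Their sum was 10.1, 15.8 and 11.9 FPKM, which differed from AF by a log2 ratio of 0.19 (exact permutation p = 0.6). Slc22a3 had 2.24, 1.66 and 2.41 FPKM, and Slc22a27 had 0.97, 0.37 and 0.20.

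The third comparison sets AF with MNA against PF and shares its libraries with the other two. Of 7 members tested by limma, 1 passed the threshold, Slc22a5 (background 3.89% of 12276 genes). At an unadjusted p below 0.05 there were 2, Slc22a5 and Slc22a18 (background 14.5%), the same 2 had groups without overlap (background 21.4%), and 0 passed after adjustment (background 0.432%), the lowest adjusted p being 0.0595. Slc22a5 was 2.17-fold higher with MNA than in PF, a log2 ratio of 1.12 with an unadjusted limma p = 0.000276 and an exact permutation p = 0.1. The lowest value with MNA (5.34 FPKM) was above the highest in PF (3.10 FPKM). Its limma coefficient was 0.90 ± 0.12 (SE), which lies inside the threshold when it is taken in place of the ratio. Beside this, the summed sinusoidal endothelial markers were 30.4 to 33.8 FPKM with MNA and 19.7 to 24.3 in PF, without overlap, and their part in the members' values was not tested. Slc22a18 was 51.6% higher, with a log2 ratio of 0.60, an unadjusted limma p = 0.00121, an adjusted p of 0.108 and an exact permutation p = 0.1. Slc22a7 and Slc22a30 had log2 ratios of -0.82 (adjusted limma p = 0.395) and -0.54 (adjusted limma p = 0.357), exact permutation p = 0.2 for each, and their libraries overlapped with those of PF. Slc22a28 had -0.56 (adjusted limma p = 0.572, exact permutation p = 0.2), and the sum of Slc22a28 and Slc22a30 had -0.55 (exact permutation p = 0.2), again with overlap. With 1 library left out in turn, the ratio ran from -1.08 to -0.53 for Slc22a7, from -0.85 to -0.38 for Slc22a28 and from -0.71 to -0.39 for Slc22a30.

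Read across the 3 comparisons, Slc22a18 and Slc22a5 had all libraries of both alcohol-fed groups above all PF libraries. Both comparisons with PF use the same 3 PF libraries, and their backgrounds for no overlap were 18.3% (AF) and 21.4% (AF with MNA). Slc22a7 had its 3 AF libraries, and 2 of its 3 libraries with MNA, below all of PF. The AF libraries of Slc22a23 lay below PF, while its libraries with MNA lay on both sides of it.

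**Figure D3:**
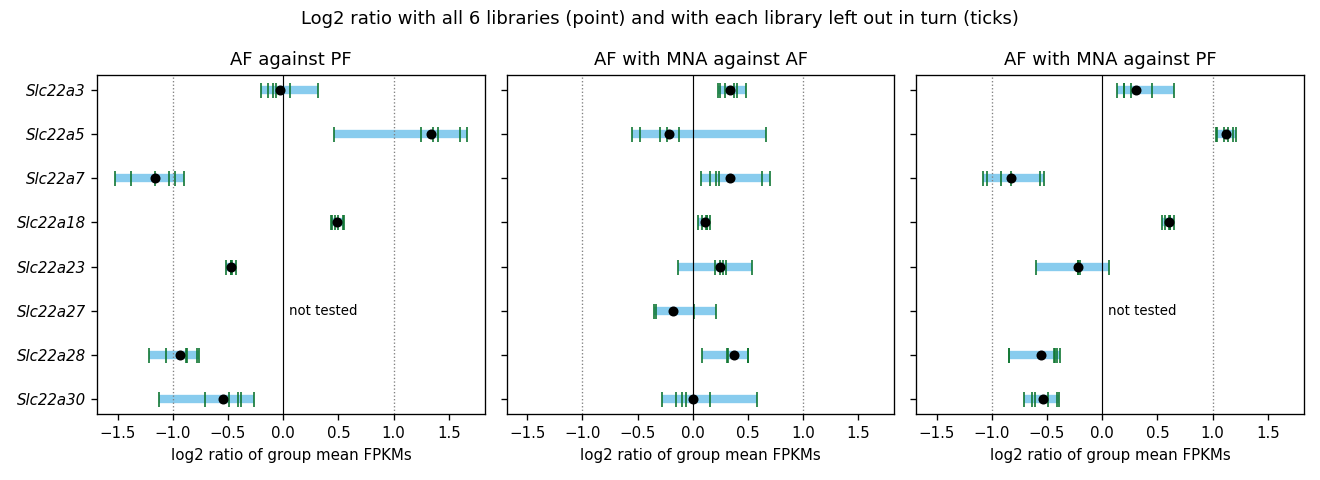
Log2 ratio of the group means (horizontal axis, dotted lines at the threshold) for each member with all 6 libraries (points) and with each library left out in turn (ticks, blue bars their range). The narrowest range is that of Slc22a23 in AF against PF and of Slc22a18 in the other two comparisons, and the range of Slc22a5 in AF against PF runs from 0.46 to 1.67.

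Of 16 other Slc22 genes read here, 14 were in the table. These had means below 1 FPKM, 8 of them below 0.1, among these the kidney anion transporters Slc22a6 and Slc22a8. Of the 3 tested, 1 passed the threshold, Slc22a26, a further gene of the chromosome 19 cluster, with 0.910 FPKM in AF and 0.200 in PF (log2 ratio 2.19, adjusted p = 0.190 by limma). Its groups did not overlap, as for its neighbour Slc22a27. The backgrounds were 4.3% of tested genes for the threshold and 18.3% for groups without overlap. In both comparisons with MNA, 0 of the 3 passed, and 0 had an unadjusted p below 0.05 by limma.

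**Figure D4:**
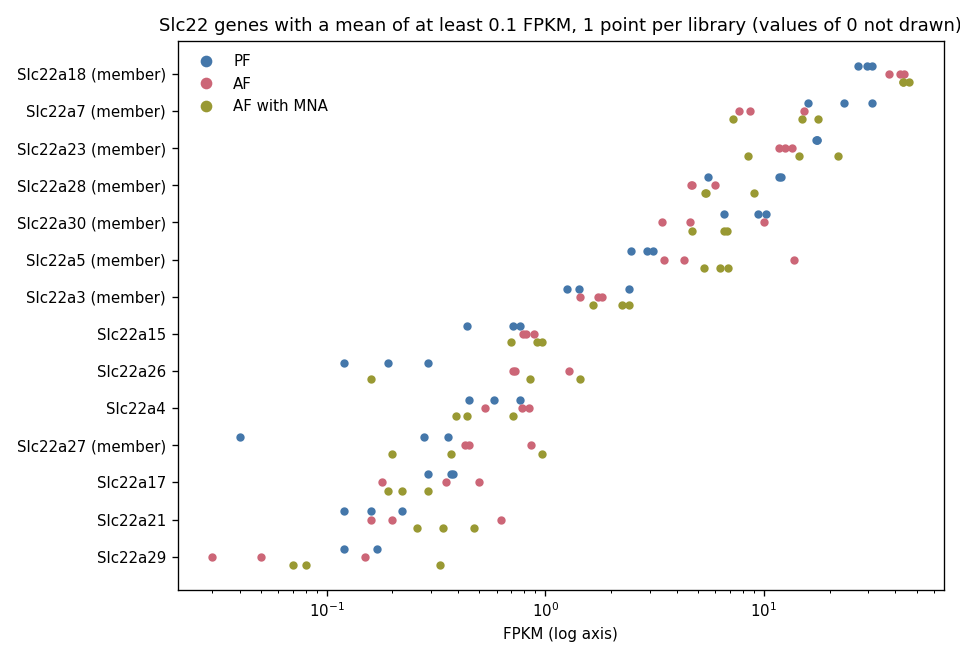
FPKM (log axis) of the 8 members and of other Slc22 genes averaging 0.1 FPKM or more, ordered by mean, with 1 point per library. All PF values lie below all AF values for the members Slc22a5, Slc22a18 and Slc22a27 and for Slc22a15 and Slc22a26. They lie above all AF values for Slc22a7 and Slc22a23. The background for groups without overlap was 18.3% of tested genes, and for Slc22a15 the gap was narrow (0.77 FPKM in PF, 0.79 in AF).

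Genes that work with the members were examined as lists, chosen with earlier results of these data known and described by counts and medians. Past the threshold, the backgrounds were 4.3% in AF against PF, 1.98% in AF with MNA against AF and 3.89% in AF with MNA against PF. At an unadjusted limma p below 0.05 they were 11.7%, 5.22% and 14.5% in the same order. Of 12 genes of carnitine synthesis and the mitochondrial shuttle, 9 were tested in AF against PF and 0 passed the threshold by limma (2 had an unadjusted p below 0.05, both lower, Aldh9a1 and Slc25a20), with a median log2 ratio of -0.23. Cpt1a, which commits fatty acids to the shuttle, had 21.1 FPKM in AF, 24.6 in PF and 26.5 with MNA and passed in none. With MNA against AF, 1 of 10 passed, Acsl1, which activates long-chain fatty acids (45.7 against 20.2 FPKM, log2 ratio 1.18, adjusted p = 0.940). At an unadjusted p below 0.05 by limma 4 were higher (Acsl1, Slc25a20, Crat and Cpt2), each with an adjusted p of 0.940. The median was 0.34. With MNA against PF, 1 of 10 passed, the carnitine efflux carrier Slc16a9 (0.740 against 0.347 FPKM, log2 ratio 1.09, adjusted p = 0.274), 2 were higher at an unadjusted p below 0.05 (Slc16a9 and Crat), and the median was 0.24.

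Among 12 partners that take up or export organic ions, 10 were tested. In AF against PF, the exporters Abcc4 and Abcc3 were higher, with log2 ratios of 4.40 (adjusted p = 0.00293 by limma) and 1.63 (adjusted p = 0.0143), and the uptake carrier Slco1a1 was lower, with -2.04 (adjusted p = 0.114). In AF with MNA against PF the same 3 genes passed in the same directions, with log2 ratios of 3.76, 1.37 and -1.13 and adjusted p of 0.138, 0.0459 and 0.306 by limma. In AF with MNA against AF, 0 of 10 passed, and 1 had an unadjusted p below 0.05 by limma. The medians of the 10 were 0.21, 0.23 and 0.23 in the order AF against PF, AF with MNA against AF and AF with MNA against PF.

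The imprinted neighbourhoods of Slc22a3 and Slc22a18 were also read. Around Slc22a3, 3 of 6 genes read were tested, Slc22a3 itself included, and 0 passed in any comparison, 0 of them at an unadjusted p below 0.05 by limma, with medians of 0.08, 0.08 and 0.16. Igf2r, the receptor at the centre of that domain, had 10.1, 10.6 and 11.2 FPKM in PF, AF and AF with MNA, and its antisense RNA Airn was at or below 0.71 FPKM. Around Slc22a18, 6 of 11 were tested, Slc22a18 among them. Here 0 passed in AF against PF, where 2 had an unadjusted p below 0.05 by limma, Cd81 and Slc22a18 itself. Tssc4 passed with MNA against AF (2.43 against 0.893 FPKM, log2 ratio 1.44, adjusted p = 0.940) and against PF (log2 ratio 1.26, adjusted p = 0.192). With MNA against PF, 3 had an unadjusted p below 0.05 by limma, namely Cd81, Slc22a18 and Tssc4. The medians were 0.37, 0.06 and 0.47. The antisense RNA Kcnq1ot1 had 1.36, 1.74 and 1.87 FPKM and did not pass, and the growth inhibitor gene Cdkn1c was at or below 0.67 FPKM.

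Of 12 transcription factors that control hepatic transporters, 1 passed in AF against PF, Cux2, with 1.36 against 0.140 FPKM (log2 ratio 3.28, adjusted p = 0.357 by limma). With MNA against AF, Foxa2 passed (log2 ratio 2.30, adjusted p = 0.940). With MNA against PF, Nr1i3, the receptor CAR, was higher (log2 ratio 1.21, adjusted p = 0.273) and Bcl6 lower (log2 ratio -2.11, adjusted p = 0.216). The medians of the list were -0.18, 0.17 and 0.26. Hnf4a, a main regulator of hepatocyte genes, had 46.7, 55.1 and 56.3 FPKM, and Ppara had 9.54, 10.2 and 13.1, and neither passed in any comparison.

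The lists of sex-biased liver genes had the largest medians of those read in both comparisons with PF. Of the female list, 7 of 12 genes were tested and 6 passed as higher in AF than in PF, with a median of 4.30, led by Cyp2b13, Cyp2b9, Cyp2b10 and Cyp2a4 (log2 ratios of 10.78, 7.82, 7.26 and 4.30). Of the male list, 10 of 12 were tested and 7 passed as lower, with a median of -2.59, led by Hsd3b5, Elovl3, Cyp4a12b and Serpina1e (-7.17, -3.80, -3.56 and -3.16). With MNA against PF the counts were 5 of 7 higher and 7 of 10 lower, with medians of 4.39 and -1.97. With MNA against AF, 1 gene of each list passed as higher, Acot3 and Elovl3, with list medians of 0.28 and 0.43. Some of these genes were at or near 0 in 1 of the groups, so their ratios are imprecise, and Slco1a1, Cux2 and Bcl6 each stood on a second list.

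Some markers of other cell types differed between the groups. In AF against PF, 1 of 5 Kupffer cell markers passed as higher, Marco, while the median log2 ratio of the 5 was -0.23 and Clec4f, Vsig4 and Adgre1 had -0.64, -0.52 and -0.23 without passing. Of the sinusoidal endothelial, stellate and cholangiocyte markers 0 of the 11 tested passed by limma, while 3 of them had an unadjusted p below 0.05 (background 11.7%), namely Pecam1 and Col1a1, which were higher, and Reln, which was lower. The summed Kupffer cell markers were 56.5 to 68.8 FPKM in PF and 44.8 to 82.4 in AF, and those of the endothelium 19.7 to 24.3 and 24.9 to 36.2 FPKM, the latter without overlap. Against PF, Marco also passed with MNA, and 3 of 5 endothelial markers were higher at an unadjusted p below 0.05 by limma (Kdr, Clec4g and Pecam1), where the background was 14.5%. Between AF with MNA and AF, 0 of these 16 markers passed, and 0 had an unadjusted p below 0.05 by limma. The T and B cell, neutrophil and kidney markers were too low to be tested, but the neutrophil sum was 0.73 to 1.41 FPKM in AF, above the 0.17 to 0.63 in PF and the 0.19 to 0.45 with MNA. The part of these markers in the members' values was not tested.

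For the members past the threshold, the genes most alike over the 9 libraries were sought among 7380 others averaging 2 FPKM or more, by Pearson's r of log2(FPKM + 1) and as a description. For Slc22a5 these were Enc1, Grn and Gm43937 (r of 0.94, 0.94 and 0.94), and 21 genes reached 0.9. For Slc22a7 they were Wdr45b, Adhfe1 and B430119L08Rik (r of 0.96, 0.95 and 0.95), and 18 genes reached 0.9. The points of each correlation share their groups and library depths.

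Other RNAs at the member genes were sparse. Of the assembled and known lncRNA transcripts, 1 lay at a member, a 230-base transcript of 1 exon within an intron of Slc22a27 (chr19:7928408-7928637, the same strand), with 1.57 FPKM in AF with MNA replicate 1, 0.11 in PF replicate 3 and 0 in the other 7. Of 4486 circRNAs with 17959 back-splice junction reads in all, 2 came from members. One joined 2 exons of Slc22a23 (chr13:34298997-34305261) with 1 read in PF replicate 1, and the other joined 4 exons of Slc22a30 (chr19:8370081-8400908) with 1 read in PF replicate 3. At 1 read each, no comparison between groups was possible. The entries themselves also varied in make-up, since 13 of the 16 transcripts summed for Slc22a30, 9 of 12 for Slc22a5 and 4 of 5 for Slc22a28 were assembled from these libraries, against 0 of 1 for Slc22a7 and 0 of 4 for Slc22a23.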

How the data were processed

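Ribosome-depleted, strand-specific liver RNA libraries were sequenced in 9 samples. The authors deposited FPKM per gene and transcript from StringTie 1.3.4, and the submitters' processing notes also name cutadapt 1.9 and HISAT2. The build is not given in the sources used here, but 7708 of 7841 known lncRNA transcripts had the ends of GENCODE M21 (GRCm38). The deposited read coverage signal of lncRNA transcripts, not scaled for depth, gave the reads behind 1 FPKM, and the deposited circRNA counts are back-splice junction reads.

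Of 52151 gene entries, 26345 had a name and a known transcript. Those averaging 0.5 FPKM or more in the 6 libraries of a comparison entered limma 3.58.1 (R 4.3.3, eBayes with intensity trend, two-sided) on log2(FPKM + 1), which understates changes of low genes, with Benjamini-Hochberg adjustment over all. The log2 ratio is that of the group mean FPKMs. The fit was tested on simulated data. Alternatives were a pseudocount of 0.1, scaling, filters (2 FPKM or none), no trend, all 9 libraries, a replicate block, the coefficient as fold change, no merged genes and each library left out.

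All members were named, other Slc22 genes by library if averaging 1 FPKM or more (1 listed gene is not reported here), and at most 4 genes per list and comparison past the threshold with the largest log2 ratio, plus Cpt1a, Igf2r, Airn, Kcnq1ot1, Cdkn1c, Hnf4a and Ppara. Slc22a6, Slc22a8, Slc22a15, Aldh9a1, Slc25a20, Crat, Cpt2, Cd81, Marco, Clec4f, Vsig4, Adgre1, Kdr, Clec4g, Pecam1, Reln and Col1a1 were added after their values were seen. The members and lists were chosen with earlier results of these data known. Sequences came from GENCODE M21 transcripts and RefSeq promoters (GRCm38.p6), aligned with Biopython 1.88.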

Additional observations from a re-analysis of the deposited data

How the results depend on the processing

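In AF against PF, 1 member passed the threshold with a pseudocount of 0.1, equal medians, no filter or a stricter one, no intensity trend, all 9 libraries, the limma coefficient as the fold change and without merged genes. Leaving out 1 library gave 0 to 4, namely 0 without PF replicate 1 or AF replicate 1, 2 without PF replicate 3, and 4 without AF replicate 3 (Slc22a5, Slc22a7, Slc22a28 and Slc22a30). In AF with MNA against AF the count was 0 in every alternative run. In AF with MNA against PF it was 0 with the limma coefficient as the fold change (Slc22a5 at 0.90), and 1 to 2 with a library left out, 2 without PF replicate 2 or AF with MNA replicate 2, where Slc22a7 joined. The adjusted p of Slc22a5 there ran from 0.0424 (mean of at least 2 FPKM) to 0.404 (all 9 libraries). In AF against PF, an unadjusted limma p below 0.05 was lost by Slc22a23 with all 9 libraries (adjusted p = 0.525) and by Slc22a28 with the replicate block (adjusted p = 0.45) and without PF replicate 1 or 2 or AF replicate 1 or 2. The cause of these changes was not tested.

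None of the log2 ratios that changed sign was past the threshold with all libraries. For Slc22a3 in AF against PF the ratio was 0.0172 with equal medians, 0.0035 as the coefficient and -0.20 to 0.31 with a library left out. In AF with MNA against AF, Slc22a5 was 0.0172 as the coefficient and -0.55 to 0.66 with a library left out, Slc22a23 -0.13 to 0.53, Slc22a27 -0.35 to 0.21 and Slc22a30 -0.28 to 0.58. In AF with MNA against PF, Slc22a23 was -0.60 to 0.0627.

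With the replicate number as a replicate block, 1, 0 and 1 members passed, as without it. Libraries of the same number had r of -0.0802 to 0.0615 over genes between their deviations, against -0.123 to 0.0972 for unlike numbers. Such correlations cannot show whether the numbers pair the libraries, which the labels do not say. The omission of AF replicate 3 and AF with MNA replicate 1 together was chosen after the data were seen. Depth limits Slc22a27 most, and no formal outlier test was run on single libraries beyond leaving each out.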
